A study of Mus musculus with 4 samples.

Results

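The transcripts of 10 genes of triacylglycerol synthesis, storage and lipolysis were examined in single brain nuclei of 5XFAD mice. The genes were chosen by symbol from a list of the pathway, and all 10 were found among the 32285 genes of the count matrices. Gpam, Agpat3, Lpin1, Lpin2, Dgat1 and Dgat2 encode enzymes of synthesis, Plin2 and Plin3 encode coat proteins of the lipid droplet, and Pnpla2 and Mgll encode lipases. The mice carried the 5XFAD transgenes of this amyloid model, which the neuronal Thy1 promoter drives, and were 7 to 10 weeks old. They received intravenous extracellular vesicles (EVs), small membrane particles that here were engineered from the lipids of adipocyte EVs of chow-fed mice and carried transferrin for entry into the brain. The PE-high EV group received vesicles enriched with phosphatidylethanolamine (PE), a major membrane phospholipid, and the PE-low EV group received vesicles that were not enriched in this way. Each group had 2 libraries of nuclei from frozen brain sections, labelled as whole brain nuclei, and each library pooled 2 mice, so the spread between libraries is that between pools. Samples given buffer and wild-type mice were not analysed here, so the values compare the PE content of the vesicles and not vesicles with their absence.

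Triacylglycerol is the neutral fat that cells keep in lipid droplets. In its synthesis, an acyl-CoA is first joined to glycerol 3-phosphate, a step that mitochondrial GPAM carries out. An acyltransferase of the AGPAT family then adds the next acyl chain, a lipin removes the phosphate from the resulting phosphatidic acid to give diacylglycerol, and DGAT1 or DGAT2 adds the last acyl chain. Perilipins coat the droplet, PNPLA2 (ATGL) begins its lipolysis, and MGLL cleaves the monoacylglycerol that remains, which in brain includes the endocannabinoid 2-arachidonoylglycerol. Diacylglycerol is also a substrate of PE synthesis, so the pathways of PE and of triacylglycerol share the lipin step. In brain, droplets are best known from glia, including astrocytes and microglia, and from aged or inflamed tissue.

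The libraries held 29472021 to 43272337 unique molecular identifiers (UMIs, each marking 1 captured RNA molecule), and 8735 to 13915 barcodes per library were called as nuclei. Both PE-high EV libraries were shallower, with 32515094 and 29472021 UMIs against 41470611 and 43272337 UMIs with PE-low EV. Between 200 and 2500 genes per nucleus and a mitochondrial share of no more than 15% were asked for, which kept 7602 to 10288 nuclei per library, because a limit of 3% left 4 to 36 microglia-like and 20 to 171 astrocyte-like nuclei per library. The kept nuclei were clustered without the 10 genes and 93 other listed genes of lipid metabolism, and clusters were named from known markers. The 8 classes compared here include the microglia-like and the astrocyte-like class, of 1 cluster each, while neuroblast-like (95 to 192 nuclei per library), ependymal-like, fibroblast-like and choroid plexus-like clusters were not compared. Microglia-like nuclei numbered 340 to 435 and astrocyte-like nuclei 618 to 817 per library. The median UMIs per kept nucleus of any class were 1652 and 2171 with PE-low EV and 1240 and 1340 with PE-high EV. The 12 microglial markers summed to between 5922 and 6298 CPM (the UMIs of a gene scaled to 1000000 UMIs of that class and library) in microglia-like nuclei and to between 212.9 and 298.5 CPM in astrocyte-like nuclei. The 10 astrocyte markers summed to between 18320 and 22170 CPM in astrocyte-like and to between 1794 and 2365 CPM in microglia-like nuclei, so RNA of other cells was present in the glial classes. Its share of the UMIs was at most 32.9% to 49.5% in microglia-like, 25.1% to 41.7% in astrocyte-like and 10.5% to 15.2% in excitatory neuron-like nuclei, as estimated from markers of other classes and the profile of near-empty barcodes. Xist was at 1280 to 1662 CPM in the 4 libraries, and none of 4 Y-linked transcripts had more than 2 UMIs. PE-low EV replicate 1 stood apart from the other libraries: interferon-induced transcripts were nearly missing from it (Ifit1 2.06 CPM against 36.8 to 55.2 CPM). Its endothelial-like nuclei all came from clusters led by Flt1 and Slco1a4, and those of the other libraries all from clusters led by Cxcl10, Rsad2, Gbp5 and Iigp1. PE-low EV replicate 2 differed in its neuronal clusters. It had 1398 nuclei in an inhibitory neuron-like cluster led by Gm32647 and Adarb2, against 389 to 663 in the other libraries. It had 211 against 844 to 1192 in a striatal projection neuron-like cluster and 217 against 577 to 665 in an excitatory neuron-like cluster. The part of this make-up, or of the lower depth with PE-high EV, in differences between the EV groups was not tested.

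The genes lie on 8 chromosomes of the mouse genome (mm10, GRCm38, annotation GENCODE M21). Gpam is at chr19:55067268-55127238 (minus strand), Agpat3 at chr10:78269178-78352489 (minus), Lpin1 at chr12:16535669-16610966 (minus), Lpin2 at chr17:71182560-71249817 (plus), Dgat1 at chr15:76502015-76511953 (minus) and Dgat2 at chr7:99153658-99182719 (minus). Plin2 is at chr4:86648386-86670060 (minus), Plin3 at chr17:56277476-56292873 (minus), Pnpla2 at chr7:141455198-141460743 (plus) and Mgll at chr6:88724412-88828360 (plus). Lpin2, Agpat3 and Mgll overlap short or non-coding genes on the same strand (1, 1 and 3 of them), so some of their reads may not be assignable to 1 gene. The UMIs mark the 3' ends of transcripts and are not per length, so levels are compared between classes for 1 gene and not between genes.

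RefSeq promoters of GRCm38.p6 were given for 8 of the 10 genes (12 windows in all). Dgat1 and Dgat2 had none. The 250 bases before the start are printed for Plin2 and Gpam, whose levels differed strongly between classes, and for Mgll, which was detected in all 8 classes. Gpam and Mgll had another window each, at another start, that is not printed. Capitals mark matches to the nuclear receptor half-site AGGTCA, the sterol regulatory element TCACNCCAC, the CCAAT box or the GC box GGGCGG, searched on both strands.
Plin2 (chr4:86670060-86670309, minus strand): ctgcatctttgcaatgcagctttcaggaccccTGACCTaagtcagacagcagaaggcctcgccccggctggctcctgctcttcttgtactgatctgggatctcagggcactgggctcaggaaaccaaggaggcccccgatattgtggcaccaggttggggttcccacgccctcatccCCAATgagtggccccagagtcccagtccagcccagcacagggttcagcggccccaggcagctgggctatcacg
Gpam (chr19:55127239-55127488, minus strand): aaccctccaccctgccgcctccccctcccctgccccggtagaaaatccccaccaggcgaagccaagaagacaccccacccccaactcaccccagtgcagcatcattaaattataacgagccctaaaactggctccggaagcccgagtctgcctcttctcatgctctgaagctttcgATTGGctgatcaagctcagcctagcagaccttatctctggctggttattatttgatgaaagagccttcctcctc
Mgll (chr6:88724162-88724411, plus strand): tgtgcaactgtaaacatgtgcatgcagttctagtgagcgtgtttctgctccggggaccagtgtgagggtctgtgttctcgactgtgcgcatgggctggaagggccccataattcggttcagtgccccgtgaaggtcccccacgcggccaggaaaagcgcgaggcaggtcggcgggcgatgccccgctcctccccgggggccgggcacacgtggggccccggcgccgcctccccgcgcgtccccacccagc
The Plin2 window held 1 half-site, on the opposite strand, and 1 CCAAT box, the printed Gpam window held 1 CCAAT box on the opposite strand, and the printed Mgll window held none of the 4 motifs. The other Gpam window held 1 half-site and 1 GC box, and the other Mgll window held 1 GC box. Of 32851 mouse promoter windows of this length, 14% held the half-site, 1.05% the sterol element, 33.8% the CCAAT box and 32.7% the GC box, so such matches are common and are given as a description of the windows. None of the 12 windows of these genes held the sterol element.

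Levels were first set side by side over the 8 classes. Libraries are listed in the order PE-low EV replicates 1 and 2, then PE-high EV replicates 1 and 2, and means are given with the SD over these 4 libraries. Each of the other 7 classes was tested against excitatory neuron-like nuclei with edgeR's quasi-likelihood test on UMIs summed per class and library, scaled by TMM (a scaling that takes most genes as equal between samples), with the library as a block. All 7 such comparisons share the same excitatory neuron-like nuclei. P-values were adjusted by Benjamini-Hochberg over 12112 genes, a call means an adjusted p under 0.1, and errors of log2 fold changes are standard errors (SE). Scaling by the total UMIs instead of TMM raised the log2 fold change of the median gene by 0.54 in microglia-like, 0.27 in astrocyte-like, 0.29 in oligodendrocyte-like, 0.28 in oligodendrocyte precursor-like, 0.51 in endothelial-like and 0.17 in inhibitory neuron-like nuclei, so changes smaller than this shift depend on the scaling.

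**Figure D1:**
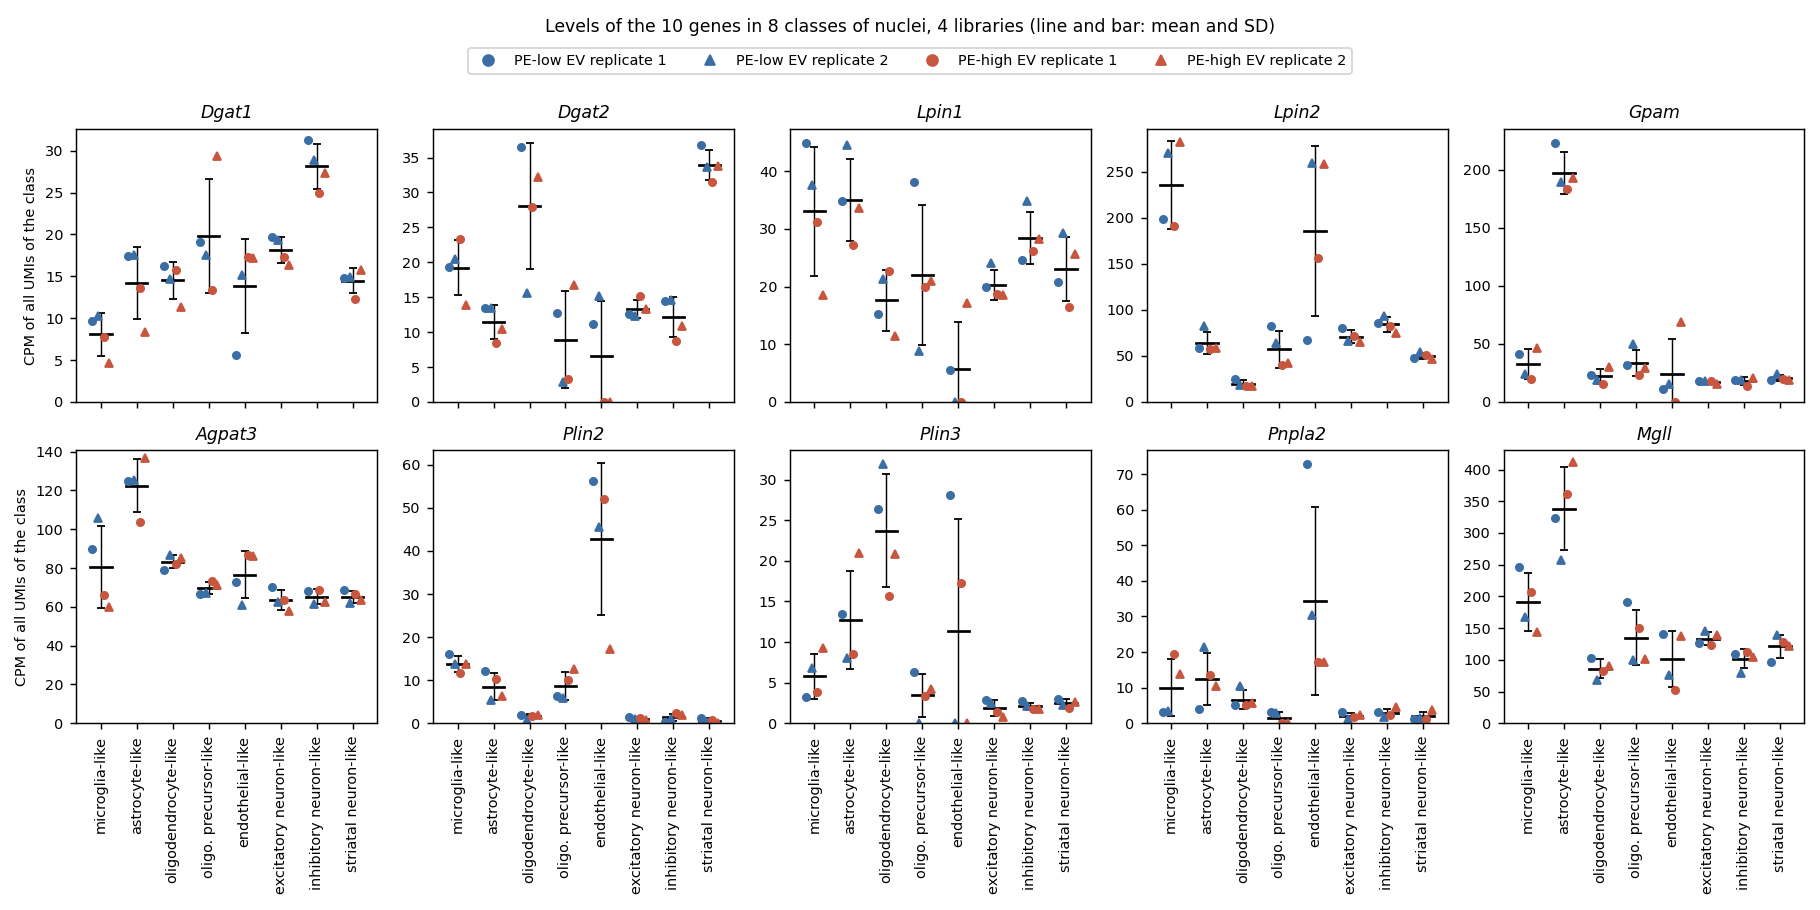
Level of each gene (y axis, CPM of all UMIs of the class) in 8 classes of nuclei (x axis). Points are the 4 libraries, blue for PE-low EV and red for PE-high EV, circles for replicate 1 and triangles for replicate 2, and lines with bars are the mean and SD. Gpam, Agpat3 and Mgll stood highest in astrocyte-like nuclei in all 4 libraries, Lpin2 was high in microglia-like and endothelial-like nuclei, and Plin2 and Pnpla2 were low in the neuronal classes.

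Astrocyte-like nuclei held the highest levels of the early enzymes of synthesis, and Gpam differed most. Gpam was at 224, 190.0, 183 and 193 CPM in astrocyte-like nuclei (mean 198 ± 18.0, n = 4, from 92 to 167 UMIs per library). In microglia-like nuclei it was at 41.7, 23.9, 19.5 and 46.2 CPM, and oligodendrocyte precursor-like nuclei, the class next below astrocyte-like nuclei, had 33.5 ± 11.3 CPM. Every astrocyte-like library lay far above every library of the other 7 classes. The mean was 11.5 times that of excitatory neuron-like nuclei, the lowest class (17.2 ± 1.16 CPM), with a log2 fold change of 3.25 ± 0.12 (SE, adjusted p = 4.94e-31). In microglia-like nuclei the log2 fold change was 0.37 ± 0.28 (adjusted p = 0.26) and missed the threshold, although with total UMI scaling it was 0.91 (adjusted p = 0.00567), and the astrocyte markers in these nuclei are given above.

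Agpat3, an acyltransferase for lysophosphatidic acid and other lysophospholipids, was flatter. It was at 125, 125, 104 and 137 CPM in astrocyte-like nuclei (122.5 ± 13.8), above every library of oligodendrocyte-like nuclei, the next class (83.3 ± 3.35). Microglia-like nuclei had 89.9, 106, 66.1 and 60.1 CPM, a range that overlapped those of most other classes. The ratio of the highest to the lowest class was 1.93, the smallest among the 10 genes. Its log2 fold change was 0.67 ± 0.10 in astrocyte-like nuclei (adjusted p = 6.65e-08). In microglia-like nuclei it was -0.17 ± 0.15 (adjusted p = 0.34) with TMM, 0.37 with total UMI scaling (adjusted p = 0.0385) and -0.75 after subtraction of ambient RNA (adjusted p = 0.0283), so its direction there turned with the scaling.

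Of the lipins, Lpin2 had levels that did not overlap between microglia-like and astrocyte-like libraries, and Lpin1 had overlapping levels in them. Lpin2 was highest in microglia-like nuclei, at 199, 270, 191 and 282 CPM (235 ± 47.2, from 49 to 79 UMIs per library). Endothelial-like nuclei followed with 67.4, 259, 156 and 259 CPM, where the library with the low value was PE-low EV replicate 1. Astrocyte-like nuclei had 59.0, 82.2, 57.7 and 58.9 CPM, and all of them lay below all microglia-like libraries. The log2 fold change of Lpin2 was 1.16 ± 0.14 in microglia-like nuclei (adjusted p = 1.5e-10). In astrocyte-like nuclei it was -0.40 ± 0.15 (adjusted p = 0.0156), a call that was lost with total UMI scaling (-0.13, adjusted p = 0.46), at the 3% limit (-0.04, adjusted p = 0.91) and with ambient RNA subtracted (-0.16, adjusted p = 0.59). Lpin1, which encodes a lipin that is also known as a transcriptional coregulator, was at 34.8, 44.5, 27.1 and 33.6 CPM in astrocyte-like nuclei (35.0 ± 7.15) and at 44.9, 37.6, 31.1 and 18.5 CPM in microglia-like nuclei (33.0 ± 11.2). The ranges of these 2 classes overlapped, as did those of every pair of neighbours in its order. Its log2 fold change was 0.52 ± 0.19 in astrocyte-like nuclei (adjusted p = 0.0139) and 0.20 ± 0.27 in microglia-like nuclei (adjusted p = 0.53, and 0.016 with total UMI scaling, where it was 0.75).

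The enzymes of the last step were highest in neuronal classes. Dgat1 was lowest in microglia-like nuclei, at 9.63, 10.3, 7.78 and 4.62 CPM (8.07 ± 2.53, from 1 to 3 UMIs per library), and astrocyte-like nuclei had 17.4, 17.5, 13.6 and 8.41 CPM. Inhibitory neuron-like nuclei were highest with 31.3, 28.9, 24.97 and 27.4 CPM, and overlapped with the oligodendrocyte precursor-like nuclei (13.3 to 29.4 CPM). The microglia-like libraries lay below all 4 inhibitory and all 4 excitatory neuron-like libraries (16.3 to 19.7 CPM). For Dgat1 the log2 fold change was -1.66 ± 0.36 in microglia-like nuclei (adjusted p = 7.85e-05) and -0.57 ± 0.21 in astrocyte-like nuclei (adjusted p = 0.0246), and the latter call was lost with total UMI scaling (-0.30, adjusted p = 0.26) and with ambient RNA subtracted (-0.44, adjusted p = 0.28). Inhibitory neuron-like nuclei exceeded excitatory ones by 0.46 ± 0.11 (adjusted p = 0.000626), and this call missed the threshold with ambient RNA subtracted (0.58, adjusted p = 0.10).

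Dgat2 was highest in striatal projection neuron-like nuclei, with 36.7, 33.7, 31.6 and 33.8 CPM (33.9 ± 2.13, from 82 to 146 UMIs per library). Microglia-like nuclei had 19.3, 20.5, 23.3 and 13.9 CPM and astrocyte-like nuclei 13.4, 13.5, 8.48 and 10.5 CPM. The striatal libraries were all above those of the other neuronal classes and of the microglia-like and astrocyte-like nuclei, and overlapped with the oligodendrocyte-like libraries (15.5 to 36.6 CPM). The value against excitatory neuron-like nuclei was 1.39 ± 0.13 in striatal projection neuron-like nuclei (adjusted p = 1.44e-13) and 0.71 ± 0.20 in oligodendrocyte-like nuclei (adjusted p = 0.00187, and 0.19 with ambient RNA subtracted). In microglia-like nuclei it was 0.004 ± 0.35 (adjusted p = 0.99) and in astrocyte-like nuclei -0.45 ± 0.29 (adjusted p = 0.17). Near-empty barcodes, which hold RNA from broken cells, had 41.0 to 46.0 CPM of Dgat2, more than the mean of any class. With this RNA subtracted at the upper limit of its share, the level was 3.19 CPM in microglia-like, 0.897 CPM in astrocyte-like and 31.6 CPM in striatal projection neuron-like nuclei. Since the upper limit was removed, these levels may be too low, and how much Dgat2 the glial nuclei held was not settled.

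**Figure D2:**
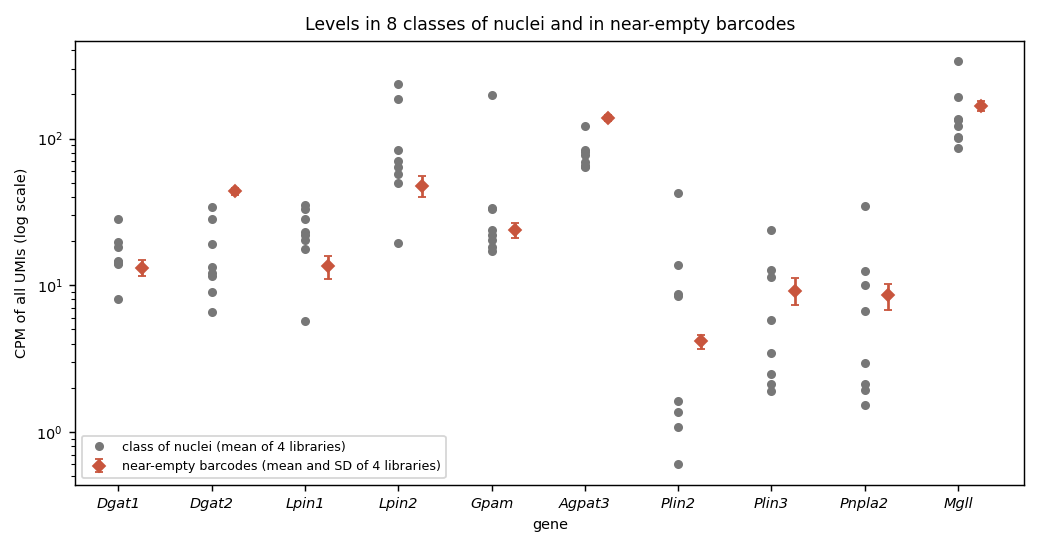
Level of each gene (y axis, CPM of all UMIs, log scale) in 8 classes of nuclei (grey, mean of 4 libraries) and in near-empty barcodes (red, mean and SD of 4 libraries). Dgat2 (43.7 CPM) and Agpat3 (138 CPM) were higher in near-empty barcodes than in any class mean, whereas the highest class exceeded the near-empty barcodes for Gpam, Lpin1, Lpin2, Dgat1, Plin2, Plin3, Pnpla2 and Mgll.

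Plin2 and Plin3 had low levels in neurons, and each was higher in some of the other classes. Plin2, whose protein coats droplets in most cell types and is a common marker of lipid loading, was at 16.1, 13.7, 11.7 and 13.9 CPM in microglia-like nuclei (13.8 ± 1.79, from 3 to 5 UMIs per library) and at 12.1, 5.39, 10.2 and 6.31 CPM in astrocyte-like nuclei (8.48 ± 3.16, from 3 to 9 UMIs). Endothelial-like nuclei had 56.1, 45.7, 51.9 and 17.2 CPM from 10, 3, 3 and 1 UMIs. Excitatory, inhibitory and striatal projection neuron-like nuclei stayed at means of 1.08, 1.38 and 0.601 CPM. All libraries of the microglia-like, astrocyte-like, oligodendrocyte precursor-like and endothelial-like nuclei lay above all libraries of the oligodendrocyte-like and neuronal classes. Plin2 had a log2 fold change of 3.06 ± 0.54 in microglia-like (adjusted p = 1.42e-06), 2.64 ± 0.46 in astrocyte-like (adjusted p = 8.39e-07), 2.60 ± 0.63 in oligodendrocyte precursor-like (adjusted p = 0.000396) and 4.77 ± 0.57 in endothelial-like nuclei (adjusted p = 1.27e-10, and 4.72 without PE-low EV replicate 1). The ratio of the highest to the lowest class mean, 71.2, was the largest among the 10 genes, but it rests on few molecules. At the 3% limit no Plin2 UMI was counted in microglia-like nuclei, which allowed a pooled level of up to 38.5 CPM (exact Poisson 95% limit, counting error only).

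Plin3, a coat protein of nascent droplets that also shuttles between cytosol and endosomes, was highest in oligodendrocyte-like nuclei, with 26.4, 31.9, 15.7 and 20.9 CPM (23.7 ± 6.97). Astrocyte-like nuclei had 13.4, 8.09, 8.48 and 21.0 CPM and microglia-like nuclei 3.21, 6.83, 3.89 and 9.25 CPM, the latter from 1 or 2 UMIs per library. The oligodendrocyte-like range overlapped that of astrocyte-like nuclei, and both lay above all neuronal libraries, whose means were 1.91 to 2.47 CPM. Against excitatory neuron-like nuclei its log2 fold change was 3.34 ± 0.30 in oligodendrocyte-like (adjusted p = 6.69e-15), 2.35 ± 0.40 in astrocyte-like (adjusted p = 5.71e-07) and 0.96 ± 0.71 in microglia-like nuclei (adjusted p = 0.23, and 0.0691 with total UMI scaling). In endothelial-like nuclei it was 2.46 ± 0.80 (adjusted p = 0.00835), a call that rested on PE-low EV replicate 1 (1.29, adjusted p = 0.60 without it).

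Of the lipases, Pnpla2 was counted sparsely and Mgll abundantly. Pnpla2 was at 3.21, 3.42, 19.5 and 13.9 CPM in microglia-like nuclei (9.99 ± 8.04), from 1, 1, 5 and 3 UMIs, and at 4.02, 21.6, 13.6 and 10.5 CPM in astrocyte-like nuclei (12.4 ± 7.28). Endothelial-like nuclei had 73.0, 30.4, 17.3 and 17.2 CPM, with 13 of their 17 UMIs in PE-low EV replicate 1. Neuronal means were 1.94 to 2.94 CPM. Its log2 fold change was 2.25 ± 0.45 in astrocyte-like nuclei (adjusted p = 1.3e-05, 1.60 without PE-low EV replicate 2 and 2.89 without PE-low EV replicate 1, both called) and 3.86 ± 0.63 in endothelial-like nuclei (adjusted p = 5.92e-07, 3.103 without PE-low EV replicate 1, adjusted p = 0.0203). In microglia-like nuclei it was 1.55 ± 0.68 (adjusted p = 0.0428), and the call was lost without PE-high EV replicate 1 (0.84, adjusted p = 0.45) or PE-high EV replicate 2 (1.46, adjusted p = 0.13), while leaving out PE-low EV replicate 1 gave 2.22 (adjusted p = 0.00605).

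Mgll was detected in all 8 classes and stood highest in astrocyte-like nuclei, with 323, 257, 361 and 412 CPM (338 ± 65.2, from 191 to 241 UMIs per library). Microglia-like nuclei came next with 247, 167, 206 and 143 CPM (191 ± 45.5), and oligodendrocyte-like nuclei were lowest with 104, 67.8, 82.1 and 91.1 CPM. The lowest astrocyte-like library was above the highest microglia-like one, and the microglia-like range overlapped that of the oligodendrocyte precursor-like nuclei. On the log2 scale Mgll differed from excitatory neuron-like nuclei by 1.05 ± 0.12 in astrocyte-like (adjusted p = 4.49e-11), -0.93 ± 0.15 in oligodendrocyte-like (adjusted p = 1.64e-07) and -0.58 ± 0.12 in inhibitory neuron-like nuclei (adjusted p = 3.37e-05). In microglia-like nuclei it was -0.01 ± 0.17 with TMM (adjusted p = 0.98) and 0.54 with total UMI scaling (adjusted p = 0.00361), the size of the scaling shift itself.

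Counted over the 10 genes, all of which were tested, astrocyte-like nuclei had 7 higher and 2 lower than excitatory neuron-like nuclei, with Dgat2 not called, against 65.9% of all 12112 genes called in either direction (32.6% higher and 33.3% lower). Microglia-like nuclei had 3 higher (Plin2, Lpin2 and Pnpla2) and 1 lower (Dgat1), against 65% of all genes (30.3% higher and 34.7% lower). The median log2 fold change of the 10 genes was 0.86 in astrocyte-like nuclei beside 0.00 for all tested genes, and 0.28 in microglia-like nuclei beside -0.06. The share of genes called was below that background in microglia-like nuclei and above it in astrocyte-like nuclei, with no test of either difference. Of the 37 calls over the 7 comparisons, 20 held in every alternative setting that gave a value. Those were Gpam, Agpat3, Lpin1, Plin2, Plin3, Pnpla2 and Mgll in astrocyte-like nuclei and Plin2, Lpin2 and Dgat1 in microglia-like nuclei, together with 10 calls in other classes.

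**Figure D3:**
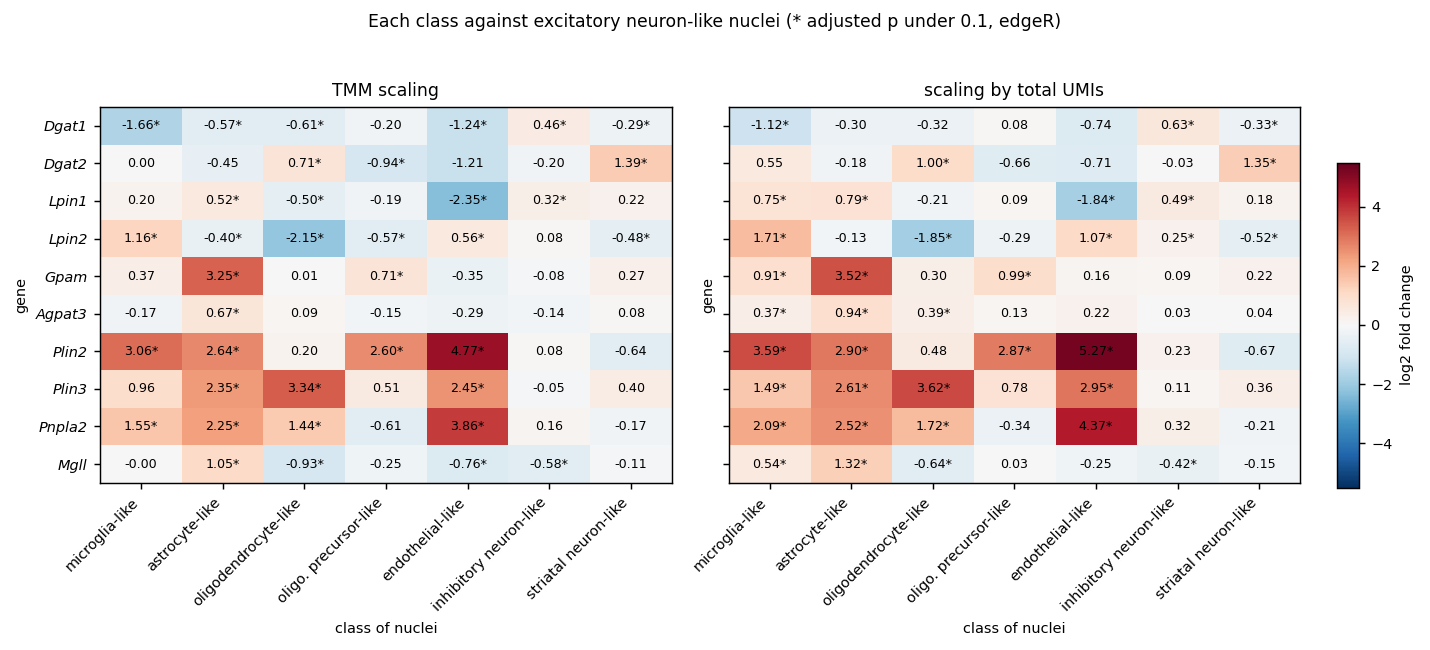
Log2 fold change of each gene (rows) in 7 classes of nuclei (columns) against excitatory neuron-like nuclei, with TMM scaling (left) and with scaling by total UMIs (right). Red is higher and blue lower in the named class, and asterisks mark an adjusted p under 0.1 (edgeR). Plin2 was higher in microglia-like, astrocyte-like, oligodendrocyte precursor-like and endothelial-like nuclei under both scalings, Gpam was led by astrocyte-like nuclei, and the sign for Agpat3 and Mgll in microglia-like nuclei turned between the panels.

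In the remaining classes the order followed other genes. Oligodendrocyte-like nuclei had 3 genes higher (Plin3, Pnpla2 and Dgat2) and 4 lower (Lpin2, Mgll, Dgat1 and Lpin1), against 69.8% of all genes called in that comparison (32.3% higher and 37.5% lower). Lpin2 was lowest there, at 25.4, 18.0, 17.5 and 17.1 CPM (19.5 ± 3.96), below every library of the other 7 classes, with a log2 fold change of -2.15 ± 0.18 (adjusted p = 1.25e-15), and of -4.51 with ambient RNA subtracted. The Lpin2 mean of microglia-like nuclei was 12.1 times that of oligodendrocyte-like nuclei, and with ambient RNA subtracted the means were 353 and 2.76 CPM. The call for Pnpla2 in oligodendrocyte-like nuclei (1.44 ± 0.48, adjusted p = 0.00658) was lost without PE-low EV replicate 2 (0.85, adjusted p = 0.21), and that for Lpin1 (-0.50 ± 0.21, adjusted p = 0.031) was lost without PE-low EV replicate 1, PE-low EV replicate 2 or PE-high EV replicate 2 (-0.38, -0.45 and -0.40), with no filter on low counts (-0.40), with ambient RNA subtracted (-0.14) and with total UMI scaling (-0.21). The call for Dgat1 (-0.61 ± 0.19, adjusted p = 0.00551) was lost with ambient RNA subtracted (-0.34) and with total UMI scaling (-0.32), and that for Dgat2 with ambient RNA subtracted (0.91, adjusted p = 0.19). Oligodendrocyte precursor-like nuclei had Plin2 and Gpam higher and Lpin2 and Dgat2 lower, against 43.2% of all genes (18% higher and 25.2% lower). Their Gpam value of 0.71 ± 0.27 (adjusted p = 0.0305) was not called without PE-low EV replicate 2 (0.47, adjusted p = 0.31), their Lpin2 value of -0.57 ± 0.20 (adjusted p = 0.0201) not without PE-high EV replicate 1 (-0.42, adjusted p = 0.19), with ambient RNA subtracted (-0.42) or with total UMI scaling (-0.29). Their Dgat2 value of -0.94 ± 0.44 (adjusted p = 0.0884) was not called in 7 of 11 alternatives, which were leaving out PE-low EV replicate 2 or PE-high EV replicate 1 (-0.61 in each), no filter, no upper limit on genes, DESeq2, total UMI scaling and a threshold of 0.05.

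Endothelial-like nuclei, with 58 to 173 nuclei per library, had Plin2, Pnpla2, Plin3 and Lpin2 higher and Lpin1, Dgat1 and Mgll lower, against 54.4% of all genes (21.4% higher and 32.9% lower). Lpin1 was at 5.61, 0, 0 and 17.2 CPM there, from 2 UMIs in all, and its log2 fold change was -2.35 ± 0.78 (adjusted p = 0.00963). Lpin2 was 0.56 ± 0.25 (adjusted p = 0.0606), 1.23 without PE-low EV replicate 1 (adjusted p = 0.000106), and not called without PE-low EV replicate 2, PE-high EV replicate 1 or PE-high EV replicate 2 (0.33, 0.57 and 0.32) or at a threshold of 0.05. Mgll was -0.76 ± 0.29 (adjusted p = 0.0279) and not called without PE-low EV replicate 2 or PE-high EV replicate 1 (-0.51 and -0.64) or with total UMI scaling (-0.25). Dgat1 was -1.24 ± 0.56 (adjusted p = 0.0848) and called in 4 of 11 alternatives, not in those without PE-low EV replicate 1 or 2 (-0.60 and -1.27), with no filter, ambient RNA subtracted, DESeq2, total UMI scaling or a threshold of 0.05. Since PE-low EV replicate 1 supplied its endothelial-like nuclei from other clusters, library and endothelial state cannot be told apart for these values. The 7 markers of mural cells, which surround vessels, summed to 913 to 1353 CPM in endothelial-like nuclei, against 139 to 174 CPM in astrocyte-like nuclei. The part of mural RNA in the endothelial-like values was not tested. Inhibitory neuron-like nuclei had Dgat1 and Lpin1 higher and Mgll lower, against 42.8% of all genes (20% higher and 22.8% lower), with Lpin1 at 0.32 ± 0.13 (adjusted p = 0.0434) and not called without PE-low EV replicate 2 or PE-high EV replicate 2 (0.31 and 0.29) or with ambient RNA subtracted (0.43). Striatal projection neuron-like nuclei had Dgat2 higher and Lpin2 and Dgat1 lower, against 50.7% of all genes (25.5% higher and 25.2% lower). Lpin2 there was -0.48 ± 0.11 (adjusted p = 0.000186), and Dgat1 was -0.29 ± 0.13 (adjusted p = 0.0572) and called in 3 of 11 alternatives, not in those without PE-low EV replicate 1, PE-low EV replicate 2 or PE-high EV replicate 1 (-0.26, -0.28 and -0.22), with no filter, no library block, ambient RNA subtracted, DESeq2 or a threshold of 0.05.

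The other listed genes of lipid metabolism, 74 of which were tested, gave the setting of these enzymes. In astrocyte-like nuclei 39 were higher and 16 lower than in excitatory neuron-like nuclei (74.3% called, against the 65.9% given above), with a median log2 fold change of 0.56 beside 0.00 for all genes. All 10 tested genes of fatty acid oxidation were called, 9 of them higher, among them Cpt1a, which admits long-chain acyl groups to mitochondria (5.17 ± 0.29), and Acadl (3.31 ± 0.20), while the neuronal isoform Cpt1c was lower (-1.09 ± 0.16). Of 11 tested genes of fatty acid synthesis and desaturation 8 were higher and none lower, with Acacb at 4.11 ± 0.45, Fads2 at 3.09 ± 0.13 and Scd1 at 1.79 ± 0.21. Of 13 tested genes of uptake, activation and binding 8 were higher and 4 lower, and the regulators Ppara (6.11 ± 0.27), Mlxipl (5.40 ± 0.51) and Srebf1 (2.66 ± 0.26) were higher and Pparg lower (-5.13 ± 0.36). Among the lipolysis genes other than Pnpla2 and Mgll, G0s2, an inhibitor of PNPLA2, was higher (2.70 ± 0.40) as was the lysosomal lipase Lipa (1.01 ± 0.27), and 5 of 10 were lower, Ddhd2 and the diacylglycerol lipases Dagla and Daglb among them. Of the steps that surround GPAM, glycerol kinase Gk (2.55 ± 0.11), Agpat5 (1.18 ± 0.11) and Agpat1 (0.59 ± 0.28) were higher and Agpat4 (-1.63 ± 0.16) and Lclat1 (-1.14 ± 0.15) lower.

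In microglia-like nuclei 24 of the 74 genes were higher and 19 lower (58.1%, against the 65% given above), with a median of 0.29 beside -0.06. Mlxipl (7.25 ± 0.42), Tfeb, a regulator of lysosomal genes (3.86 ± 0.35), and Cpt1a (3.57 ± 0.51) were highest by fold. Among the lipolysis genes Abhd12 (1.59 ± 0.10), which like MGLL hydrolyses 2-arachidonoylglycerol, Lipa (1.26 ± 0.34), G0s2 (2.00 ± 0.61) and Daglb (0.68 ± 0.18) were higher, and Ddhd2 (-1.12 ± 0.15) and Dagla (-0.72 ± 0.21) were lower, as were Nceh1 and Abhd6 by about the scaling shift or less (-0.56 ± 0.16 and -0.32 ± 0.17). Lpl, which hydrolyses lipoprotein triacylglycerol (1.31 ± 0.40), and the acyl-cholesterol synthase Soat1 (1.03 ± 0.24) were higher, whereas Acaca (-1.70 ± 0.19), Elovl6 (-1.35 ± 0.21) and Me1 (-2.10 ± 0.31) of fatty acid synthesis were lower. None of the 8 tested genes of the glycerol 3-phosphate and acylation steps other than Gpam, Agpat3, Lpin1 and Lpin2 was higher in microglia-like nuclei and 4 were lower, Agpat4 (-1.51 ± 0.20), Lclat1 (-1.004 ± 0.18), Agpat5 (-0.54 ± 0.19) and Gk (-0.50 ± 0.26), the last pair by about the scaling shift. Of the 74 genes, 37 were higher and 18 lower in oligodendrocyte-like, 20 and 13 in oligodendrocyte precursor-like, 21 and 17 in endothelial-like, 15 and 16 in inhibitory neuron-like and 12 and 23 in striatal projection neuron-like nuclei. Of all 12112 genes, 69.8%, 43.2%, 54.4%, 42.8% and 50.7% were called in these comparisons, in the same order. The counts of listed genes were not tested against these shares.

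Levels of the 8 classes were also taken from UMIs pooled over the libraries, on a log2 scale. Over these, the profiles most like that of Gpam among 12884 genes were those of Tspan7 (Pearson's r = 0.99), Plcd4 (0.98) and Acot11 (0.98). For Dgat2 they were Rps6ka5 (0.96), Tmprss9 (0.95) and Pcgf1 (0.90), and for Plin2 they were Ddx58 (0.99), Tap2 (0.99) and Wwc2 (0.98). These are correlations over 8 points that share libraries, depth and ambient RNA, and are given as a description. Ddx58 and Tap2 are known as interferon-induced genes, and the endothelial-like nuclei that lead the Plin2 profile include the clusters led by such genes. PE-low EV replicate 1, which nearly lacked interferon-induced transcripts, had 56.1 CPM of Plin2 in endothelial-like nuclei (10 of 17 UMIs). These UMIs are too few to order the libraries, and the endothelial-like nuclei of this library came from other clusters. A link of Plin2 with interferon was not tested.

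The comparison of PE-high EV with PE-low EV asked whether the PE content of the vesicles moved these transcripts. With edgeR's quasi-likelihood test within each class, none of the genes that could be tested was called in any of the 8 classes, and none under the alternative settings that gave a value. Between 1 gene, in endothelial-like nuclei, and 9 genes, in excitatory neuron-like nuclei, were tested at the 15% limit. At the 3% limit microglia-like and endothelial-like nuclei were too few to test, 0 of the 10 genes passed the count filter in oligodendrocyte-like and oligodendrocyte precursor-like nuclei, 2 did in astrocyte-like nuclei and 7 in each neuronal class. In the background, 0% of 6143 genes in microglia-like and 0% of 9063 genes in astrocyte-like nuclei were called by edgeR (277 and 416 genes at an unadjusted p under 0.05), and DESeq2 called 0 genes in both (29 and 52 at an unadjusted p under 0.05). Genes were called in oligodendrocyte precursor-like (0.0169%) and excitatory neuron-like nuclei (0.0208%), 1 and 3 in all, in excitatory neuron-like nuclei at the 3% limit (0.085%, 11 in all), and in no other class tested. Low counts kept 5 of the 10 genes from being tested in microglia-like nuclei (Dgat1, Dgat2, Plin2, Plin3 and Pnpla2) and 4 in astrocyte-like nuclei (Dgat2, Plin2, Plin3 and Pnpla2). With 2 libraries a group, the p-values measure only the spread between these pools of mice, and a missed threshold does not show that levels were alike. At an unadjusted p under 0.05, none of the 5 tested genes stood in microglia-like nuclei (4.51% of all genes), none of the 6 in astrocyte-like (4.59%), none of the 8 in oligodendrocyte-like (5.18%), none in endothelial-like (2.38%), inhibitory neuron-like (3.93%) or striatal projection neuron-like nuclei (4.54%), and 1 each in excitatory neuron-like and oligodendrocyte precursor-like nuclei. At the 3% limit only Mgll in astrocyte-like nuclei did (2.59% of all genes there), and none did in excitatory (5.18%), inhibitory (3.52%) or striatal projection neuron-like nuclei (4.47%).

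In microglia-like nuclei, Agpat3 had group means of 97.9 CPM with PE-low EV and 63.1 CPM with PE-high EV, and the groups of libraries did not overlap. Near-empty barcodes held more Agpat3 than these nuclei, with 140 and 144 CPM in the PE-low EV and 129 and 139 CPM in the PE-high EV libraries. With ambient RNA subtracted, Agpat3 could not be tested in this class. Its log2 fold change was -0.60 ± 0.34 (SE, unadjusted p = 0.0877, adjusted p = 0.99), and -0.70 without PE-low EV replicate 1 (adjusted p = 0.79). Lpin1 was likewise without overlap, at 41.3 and 24.8 CPM, with a log2 fold change of -0.68 ± 0.54 (adjusted p = 1). With ambient RNA subtracted, at a 10% mitochondrial limit or without PE-low EV replicate 1, Lpin1 had too few counts here to be tested. Lpin2 (0.02 ± 0.26), Gpam (-0.04 ± 0.58) and Mgll (-0.22 ± 0.27) had overlapping groups and adjusted p of 1. Non-overlap of this kind was seen for 18.3% of the 6143 tested genes in the lower and 15% in the higher direction. The untested Plin2 had 16.1 and 13.7 CPM with PE-low EV and 11.7 and 13.9 CPM with PE-high EV, from 3 to 5 UMIs per library. Pnpla2 had 1 UMI in each PE-low EV library and 5 and 3 in the PE-high EV libraries, too few to pass the count filter. With no filter on low counts its unadjusted p was under 0.05 (edgeR) and it was not called, and with DESeq2 the unadjusted p was not under 0.05. In these nuclei the 12 microglial markers summed to 6101 and 6162 CPM with PE-low EV and to 6298 and 5922 CPM with PE-high EV. The 10 oligodendrocyte markers summed to 1858 and 2237 CPM with PE-low EV and to 1482 and 1336 CPM with PE-high EV, and were lower in both PE-high EV libraries in each of the other 7 classes too. Their part in the Agpat3 and Lpin1 values was not tested. Median mitochondrial shares of all called nuclei were 5.14% and 3.85% with PE-low EV and 7.69% and 4.28% with PE-high EV.

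In astrocyte-like nuclei, Mgll was at 323 and 257 CPM with PE-low EV and at 361 and 412 CPM with PE-high EV, so both PE-high EV libraries were above both PE-low EV libraries. The log2 fold change was 0.42 ± 0.21 (unadjusted p = 0.0583, adjusted p = 0.999) and at the 3% limit, with 20 to 171 nuclei per library, 0.78 ± 0.34 (unadjusted p = 0.0385, adjusted p = 1). Over the alternatives at the 15% limit it ranged from 0.29, without PE-low EV replicate 2, to 0.58, without PE-low EV replicate 1, with adjusted p from 0.25 to 1. With the replicate number as a block, and with ambient RNA subtracted, Mgll had an unadjusted p under 0.05 (edgeR) and was not called. In the other settings at the 15% limit that kept every library, its unadjusted p was not under 0.05. In microglia-like nuclei the value for Mgll had the other sign, and the difference between the classes was not tested. The other tested genes were at -0.13 ± 0.22 for Gpam, -0.06 ± 0.23 for Agpat3, -0.39 ± 0.34 for Lpin1, -0.27 ± 0.27 for Lpin2 and -0.62 ± 0.53 for Dgat1, each with an adjusted p of 0.999. Lpin1, Lpin2 and Dgat1 had every PE-high EV library below every PE-low EV library, which 17.3% of 9063 tested genes showed in that direction and 15.3% in the other. For Dgat1 this rested on 13 and 13 UMIs against 8 and 4. The oligodendrocyte markers in astrocyte-like nuclei summed to 1585 and 1772 CPM with PE-low EV and to 1123 and 1347 CPM with PE-high EV, and their part was not tested. At the 3% limit Gpam was at -0.23 ± 0.42 (adjusted p = 1), from -1.39 without PE-high EV replicate 2 to -0.003 without PE-high EV replicate 1.

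**Figure D4:**
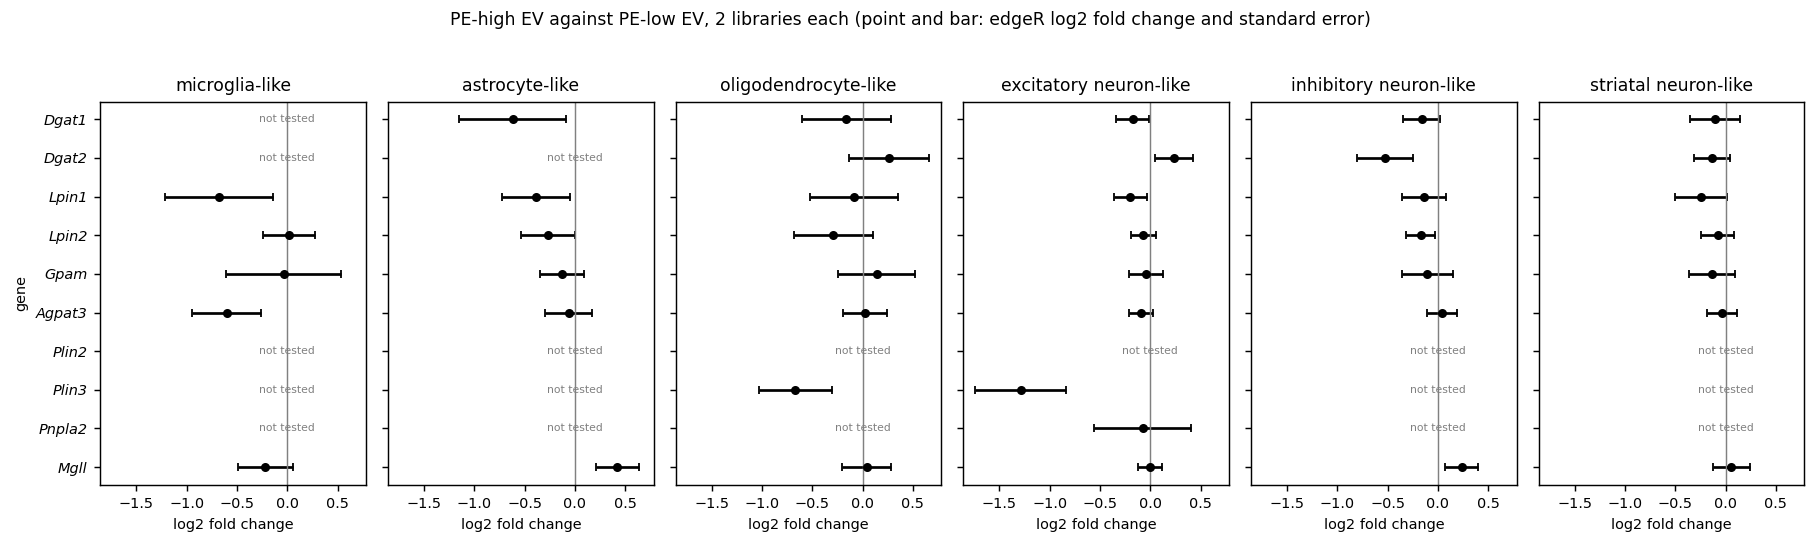
Log2 fold change of PE-high EV against PE-low EV (x axis) for each gene (y axis) in 6 classes of nuclei, with 2 libraries a group. Points are edgeR estimates and bars their SE, and genes with too few counts are marked as not tested. No estimate passed the adjusted threshold, with Mgll at 0.42 in astrocyte-like, Agpat3 at -0.60 in microglia-like and Plin3 at -1.29 in excitatory neuron-like nuclei.

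Elsewhere at the 15% limit, 2 values had an unadjusted p under 0.05. Plin3 in excitatory neuron-like nuclei was at 2.93 and 2.53 CPM with PE-low EV and at 1.35 and 0.824 CPM with PE-high EV, a log2 fold change of -1.29 ± 0.45 (unadjusted p = 0.0118, adjusted p = 0.75). Near-empty barcodes held more Plin3 than these nuclei and differed in the same direction, with 10.9 and 10.8 CPM in the PE-low EV and 7.39 and 7.69 CPM in the PE-high EV libraries, and with ambient RNA subtracted Plin3 could not be tested in this class. Lpin2 in oligodendrocyte precursor-like nuclei was at 82.7 and 64.2 CPM with PE-low EV and at 40.0 and 42.0 CPM with PE-high EV, a log2 fold change of -0.82 ± 0.36 (unadjusted p = 0.0324, adjusted p = 0.82). At a 10% mitochondrial limit, with ambient RNA subtracted and with DESeq2, the unadjusted p of this Lpin2 value was not under 0.05. In the other settings that kept every library it was (edgeR). In these classes 5.35% and 5.62% of all tested genes had an unadjusted p under 0.05. In the classes where they were highest, Plin3 was at -0.67 ± 0.36 in oligodendrocyte-like (adjusted p = 0.96), Dgat1 at -0.16 ± 0.19 in inhibitory neuron-like and Dgat2 at -0.14 ± 0.18 in striatal projection neuron-like nuclei, and Plin2 and Pnpla2 had too few UMIs in endothelial-like nuclei to be tested. Over all 46 tested pairs of gene and class, 14 had every PE-high EV library below and 3 every PE-high EV library above the PE-low EV libraries. Over the 8 classes, such non-overlap was seen for 12.5% (endothelial-like) to 21% (excitatory neuron-like) of all tested genes in the lower and for 13.2% (excitatory neuron-like) to 18.7% (striatal projection neuron-like) in the higher direction.

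Of the 93 other listed genes, none was called with PE-high EV in microglia-like nuclei (43 tested) or in astrocyte-like nuclei (64 tested). The smallest unadjusted p-values in microglia-like nuclei were those of Srebf2, a regulator of sterol synthesis (-0.90 ± 0.38, unadjusted p = 0.0282, adjusted p = 0.99), and Ppard (-0.75 ± 0.42, unadjusted p = 0.081, adjusted p = 0.99). In astrocyte-like nuclei they were those of Gpd1l, a glycerol 3-phosphate dehydrogenase homologue (-1.38 ± 0.49, unadjusted p = 0.00929, adjusted p = 0.999), and the elongase Elovl6 (-0.56 ± 0.27, unadjusted p = 0.0478, adjusted p = 0.999). The median log2 fold change of the tested pathway genes other than the 10 was -0.06 in microglia-like and -0.05 in astrocyte-like nuclei, beside -0.01 for all tested genes in each.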

How the data were processed

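Nuclei were isolated from frozen brain sections and processed with 10x Genomics 3' chemistry. Per the labels, the authors aligned reads to mm10 with Cell Ranger 7.1.0 and deposited raw UMI counts per gene and barcode, unfiltered. Whether intronic reads were counted is not given in the sources used here. The study's filter (200 to 2500 genes, at most 3% mitochondrial) was applied after nuclei had been called by a knee rule and a test against near-empty barcodes (ranks 45000 to 90000, at least 500 UMIs, 10000 simulations, false discovery rate 0.01), and a limit of 15% gave the main values. No doublet caller was run. Barcodes shared by any 2 libraries numbered 19 to 36.

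Nuclei were clustered in scanpy 1.11.5 with leidenalg 0.10.2 (2000 variable genes, 30 components, 20 neighbours, resolution 1.5). Non-neuronal classes needed at least 3 markers, and at least 50% of their list, at 3 times the median cluster. Neuronal classes needed at least 3 markers at only 1.5 times the median cluster. These naming thresholds were set after clusters had been seen. Clusters mixed with neurons stayed unnamed. So did those that met the rule for several non-neuronal classes without a clear leader. A clear leader exceeded the next class by at least 2 in median log2 marker fold. Some endothelial-like clusters kept their name in this way, although they also met the rule for mural, astrocyte or oligodendrocyte markers. UMIs were summed per class and library and tested in edgeR 4.0.16 (R 4.3.3, quasi-likelihood, TMM, filterByExpr, Benjamini-Hochberg over all tested genes, threshold 0.1), leaving out classes under 10 nuclei in any library. Scripts were tested on simulated data. DESeq2 1.42.0, other scalings, filters and limits, subtraction of ambient RNA, the replicate number as a block and leaving out each library were alternatives. Ambient RNA was subtracted at the upper limit of its estimated share, so levels after subtraction may be too low. The genes and lists were chosen with earlier results of these data known. Treatment values are given for every gene tested in microglia-like and astrocyte-like nuclei, and elsewhere at an unadjusted p under 0.05 or in the gene's highest class. Of the other lists, the pair of smallest p-values per glial class is named, and the examples from the class comparisons were picked after their values were seen. SEs are the log2 fold change over the root of F.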

Additional observations from a re-analysis of the deposited data

Results flagged for a closer look

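Among 80 sets of 4 libraries (10 genes in 8 classes), 5 held a library far from the other 3 by Dixon's test, where chance gives about 1 in 20. Lpin2 in astrocyte-like nuclei was at 82.21 CPM in PE-low EV replicate 2 and at 57.67 to 58.95 CPM in the other libraries, and its separation of PE-low EV from PE-high EV libraries in this class rested on 58.95 against 58.85 CPM for the nearest pair. Lpin2 in oligodendrocyte-like nuclei was at 25.38 CPM in PE-low EV replicate 1 and at 17.08 to 17.98 CPM in the others. Pnpla2 in oligodendrocyte-like nuclei was at 10.62 CPM in PE-low EV replicate 2 and at 5.077 to 5.694 CPM in the others, the library without which its call against excitatory neuron-like nuclei was lost. Pnpla2 in striatal projection neuron-like nuclei was at 3.838 CPM in PE-high EV replicate 2 and at 1.154 to 1.498 CPM in the others, and Gpam in excitatory neuron-like nuclei at 15.5 CPM in PE-high EV replicate 2 and at 17.69 to 18 CPM in the others.

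For 2 genes, the PE-high EV libraries were all above the PE-low EV libraries in 1 class and all below them in another. Non-overlap in the higher direction was seen for 13.2% of all tested genes in excitatory neuron-like and 17.2% in oligodendrocyte precursor-like nuclei. In the lower direction it was seen for 18.3% in inhibitory neuron-like and 18.3% in microglia-like nuclei. How many of all genes had opposite directions in a pair of classes was not counted. Dgat2 had log2 fold changes of 0.24 in excitatory neuron-like and -0.53 in inhibitory neuron-like nuclei, a difference of 0.76 that was not tested. Both classes had less Dgat2 than the near-empty barcodes (41.0 to 46.0 CPM). Agpat3 had 0.12 in oligodendrocyte precursor-like and -0.60 in microglia-like nuclei, a difference of 0.73 that was not tested. Both of these classes had less Agpat3 than the near-empty barcodes (128.6 to 144 CPM), and with ambient RNA subtracted Agpat3 could be tested in neither.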

How the results depend on the processing

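Of 494 alternative values of the class log2 fold changes, 424 kept their direction and side of the threshold, 55 fell short of it, 5 passed it and 10 changed direction. Of 274 alternative treatment values 261 kept both and 13 changed direction, and no treatment value of the 10 genes was called under the alternatives that gave one. Of 230 alternative levels 60 moved by more than 1 SD between libraries (33 with ambient RNA subtracted and 27 at the 3% limit), such as those of microglia-like nuclei at the 3% limit for Gpam (32.8 to 87.6 CPM), Pnpla2 (9.99 to 51.1 CPM) and Agpat3 (80.5 to 26.5 CPM). The cause of the changes was not tested. In microglia-like against excitatory neuron-like nuclei, Mgll (-0.005) became 0.028 with no filter on low counts, 0.082 with no upper limit on genes, 0.271 with ambient RNA subtracted, 0.076 with DESeq2, 0.540 with total UMI scaling and -0.143 to 0.192 on leaving out 1 library. Agpat3 became 0.370 with total UMI scaling, and Dgat2 became -1.975 with ambient RNA subtracted and -0.030 to 0.147 on leaving out 1 library. Total UMI scaling was chosen after seeing the data.

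In the treatment comparison, Lpin2 in microglia-like nuclei (0.02) became -0.021 with no filter and -0.027 at a 10% mitochondrial limit, and Agpat3 in astrocyte-like nuclei became 0.054 at the 10% limit. Leaving out 1 library gave -0.261 to 0.282 for Lpin2, -0.715 to 0.493 for Gpam and -0.521 to 0.121 for Mgll in microglia-like nuclei, -0.258 to 0.128 for Agpat3 and -0.501 to 0.014 for Lpin2 in astrocyte-like nuclei, and at the 3% limit -0.048 to 0.291 for Dgat1 in inhibitory neuron-like and -0.392 to 0.028 for Dgat2 in striatal projection neuron-like nuclei. In these fits the lone library of a group is assumed to vary like the others.

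Counts of all genes called between PE-high EV and PE-low EV depended more on the setting, and none of these genes is among the 10. The main counts were 3 in excitatory neuron-like nuclei (11 at the 3% limit), 1 in oligodendrocyte precursor-like nuclei and 0 in the other classes (edgeR). With the replicate number as a block they were 22 in microglia-like, 24 in astrocyte-like, 1 in oligodendrocyte-like (2 at 3%), 33 in oligodendrocyte precursor-like, 202 in excitatory (29), 188 in inhibitory (26) and 64 in striatal projection neuron-like nuclei (39). Deviations of same-numbered libraries correlated at -0.0026 to 0.19 over the 8 classes, and with 2 pairs the numbers were not shown to pair the libraries. With no filter the counts were 9 in microglia-like, 9 in oligodendrocyte-like, 5 in oligodendrocyte precursor-like, 1 in endothelial-like, 129 in excitatory (28) and 78 in inhibitory neuron-like nuclei (7). With ambient RNA subtracted they were 15 in oligodendrocyte precursor-like, 137 in excitatory (46) and 17 in inhibitory neuron-like nuclei. At an adjusted p of 0.05 they were 1 in excitatory neuron-like nuclei (7), with no upper gene limit 0 in oligodendrocyte precursor-like, 0 in excitatory (4) and at 3% 1 in inhibitory neuron-like nuclei, at the 10% limit 0 in oligodendrocyte precursor-like nuclei, and with DESeq2 0 there and 1 in excitatory neuron-like nuclei at 3%. Leaving out 1 library gave 2 to 40 in microglia-like, 1 to 167 in astrocyte-like (0 to 5 at 3%), 1 to 138 in oligodendrocyte-like (0 to 2), 1 to 21 in oligodendrocyte precursor-like (0 to 3), 0 to 193 in endothelial-like, 6 to 537 in excitatory (0 to 134), 0 to 488 in inhibitory (0 to 48) and 0 to 79 in striatal projection neuron-like nuclei (0 to 269).

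Genes called between classes numbered 3917 in astrocyte-like, 3769 in oligodendrocyte-like, 2334 in oligodendrocyte precursor-like, 2841 in inhibitory and 3728 in striatal projection neuron-like nuclei at the 3% limit, where fewer nuclei were left, and 2686 in inhibitory and 3829 in striatal projection neuron-like nuclei with ambient RNA subtracted, against 7983, 8454, 5238, 5183 and 6137. Depth limited Dgat1, Dgat2, Plin2, Plin3 and Pnpla2 in microglia-like and astrocyte-like nuclei, where libraries held 1 to 16 UMIs of each.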

Other observations

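Within the inhibitory neuron-like class Mgll ranged more widely between clusters than Dgat1 did. Pooled over the 4 libraries, Mgll in inhibitory neuron-like clusters ran from 46.6 CPM (exact Poisson 95% interval 34.6 to 61.5, counting error only) in a cluster led by Myo5b and Cpa6 to 243 CPM (215 to 274) in a cluster led by Adarb2, Vip and Reln. Dgat1 ran from 20.5 to 35.3 CPM over the inhibitory neuron-like clusters, and a neuroblast-like cluster had 27.5 CPM. Among the named clusters that were measured, Lpin1 had its highest pooled level in 55 ependymal-like nuclei, at 131 CPM (67.7 to 229, from 12 UMIs). The fibroblast-like and choroid plexus-like clusters and the smallest endothelial-like cluster held too few nuclei and were not measured. These clusters were not compared between the groups.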
